A study of Mus musculus with 5 samples.

Results

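The 10 genes described here encode factors and receptors of the erythroid programme, the gene programme of cells on their way to becoming red blood cells. They were Gata1, Klf1, Tal1, Nfe2, Zfpm1, Lmo2, Ldb1, Bcl11a, Epor and Tfrc, chosen by name with earlier results of these data known. Each matched 1 of the 54113 named entries of the count table. All 10 were among the 16133 genes that passed the filter on low counts. The data were bulk RNA-seq counts from CRC tumours, grown in C57BL/6 mice from inoculated MC38 cells, a mouse colon carcinoma line. After inoculation, 3 mice were kept at 30 °C and 2 at 4 °C, in each case for 2 weeks, and the comparison asked how exposure to cold altered the tumour transcriptome. Neither group carried a genetic alteration or received a drug according to the labels. The labels give neither the age nor the sex of the sequenced mice.

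In erythroid cells GATA1 binds DNA together with TAL1, and the adaptor proteins LMO2 and LDB1 join them into a single complex. ZFPM1 (FOG1) binds GATA1 directly, KLF1 acts on globin and red-cell membrane genes, NFE2 acts at the globin locus control region, and BCL11A silences embryonic-type globin genes. EPOR receives erythropoietin, the hormone that keeps late progenitors alive, and TFRC takes up transferrin-bound iron for haem. Several of these genes are active elsewhere too: Gata1, Tal1, Nfe2 and Zfpm1 also in megakaryocytes and Gata1 also in mast cells, Lmo2 in endothelium, Bcl11a in B cells, Tfrc in dividing cells of most kinds, and Ldb1 broadly. In adult mice the spleen is a site of red-cell formation.

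The sequence before the start of transcription is given for 4 of the genes. Gata1, Klf1 and Epor are shown because their levels followed one another most closely over the 5 tumours. Tal1 is shown as 1 of the 3 genes whose levels at the 2 temperatures did not overlap, the others being Zfpm1 and Tfrc. The sequences are from RefSeq on GRCm38.p6, run 5′ to 3′ on the strand of the gene and carry in capitals each match on either strand to the GATA motif, which is GATAA or GATAG after an A or a T. They cover the 250 bases before the RefSeq start, except that the last 54 bases before the Klf1 start lie in an exon of the GENCODE M21 annotation and were left out. They lie at chrX:7967911-7968160 (minus strand, within an intron of a longer Gata1 transcript), chr8:84901732-84901927 (plus strand), chr9:21963577-21963826 (minus strand) and chr4:115056176-115056425 (plus strand), respectively.
Gata1: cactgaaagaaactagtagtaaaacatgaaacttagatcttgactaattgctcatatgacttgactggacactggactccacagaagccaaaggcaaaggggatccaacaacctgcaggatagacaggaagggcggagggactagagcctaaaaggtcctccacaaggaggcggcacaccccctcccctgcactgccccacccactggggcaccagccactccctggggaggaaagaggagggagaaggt
Klf1: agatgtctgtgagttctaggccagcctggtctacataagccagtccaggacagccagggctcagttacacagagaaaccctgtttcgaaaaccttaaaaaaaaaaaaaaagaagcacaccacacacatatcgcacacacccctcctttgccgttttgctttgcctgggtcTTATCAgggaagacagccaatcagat
Epor: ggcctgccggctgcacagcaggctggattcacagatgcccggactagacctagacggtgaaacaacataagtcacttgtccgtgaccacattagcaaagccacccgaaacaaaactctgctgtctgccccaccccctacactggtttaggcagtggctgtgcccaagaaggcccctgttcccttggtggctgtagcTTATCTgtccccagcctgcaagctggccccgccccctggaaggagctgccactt
Tal1: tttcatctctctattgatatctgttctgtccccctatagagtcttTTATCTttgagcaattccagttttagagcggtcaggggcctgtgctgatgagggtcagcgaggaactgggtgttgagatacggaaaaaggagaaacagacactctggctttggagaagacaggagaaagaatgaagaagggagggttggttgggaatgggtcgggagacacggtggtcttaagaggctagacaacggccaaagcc
The Klf1 sequence held its GATA match 80 bases before the start, the Epor sequence 54 bases and the Tal1 sequence 205 bases before it. The Gata1 sequence held none, but held 3 separate matches (either strand) to CCNCNCCC, a KLF-type motif, at 71, 55 and 34 bases before the start. The Epor sequence also held CCNCNCCC, at 124, 122, 28 and 26 bases before the start, and the printed Klf1 and Tal1 sequences did not. No GATA match in the printed sequences overlapped one to CCNCNCCC. RefSeq windows were matched for 8 of the 10 genes, all except Nfe2 and Lmo2. Besides Klf1, Epor and Tal1, 1 of the Ldb1 windows held the GATA motif, at 240 and 200 bases before its start. A further Tal1 window, at chr4:115057561-115057810, held none, and neither did the windows of Zfpm1, Tfrc and Bcl11a. Every matched gene but Klf1 had a window with CCNCNCCC. Over all genes, 29.7% of 27025 had a window with the GATA motif and 48.5% had one with CCNCNCCC. The NFE2-type motif TGANTCA was in no window of the matched genes and in 7.82% of all genes. A match describes letters in a window and was not tested for binding.

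The libraries held 16191708 to 20320525 counts on named genes, and counts are given as CPM (counts scaled to libraries of equal size) after scaling by the trimmed mean of M-values (TMM). Genes of pancreatic acinar cells took 26.3% of all counts in the library of 30 °C replicate 2, 0.256% in 4 °C replicate 2 and at most 0.00811% in the other libraries, and fold changes and relative levels of the 10 genes were therefore also computed without 30 °C replicate 2. The label names tumour tissue. Of 10 markers of colon epithelium, 7 were above 3 counts in every library. Among these, Epcam had 128 to 200 counts, Krt8 59 to 966, Krt18 16 to 624 and Cdh1 42 to 403. Krt20 had 9 to 52, Cldn7 10 to 68 and Lgals4 15 to 31. The other 3 were at or under 3 counts in some library: Cdx2 had 0 to 8, Vil1 0 to 4 and Krt19 0 to 81 counts. Tlx1, a factor of spleen development, had 173 to 563 counts, and all 12 genes of a list for spleen mesenchyme and red pulp were above the floor of 3 counts in every library. In 5 of the 12, Tlx1 among them, both 4 °C tumours lay above all 3 tumours kept at 30 °C, as in 12.2% of all genes tested. In 1, Cd5l, both lay below, as in 11.0%. The part of such cells in the levels of the 10 genes was not tested. Where the sampled tissue lay was not tested. In bulk RNA, fewer cells of a type and less RNA per cell cannot be told apart.

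No change was established for any of the 10 genes. By the quasi-likelihood test of edgeR, 0 of the 10 passed an adjusted p of 0.05, as did 0% of all genes tested, and the smallest adjusted p over all genes was 0.689. The direction was nevertheless uneven. The fitted level was lower at 4 °C for 8 of the 10 genes and higher for Ldb1 and Bcl11a, with a median log2 fold change of -0.58 against 0.01 over all genes, of which 49.3% were lower. At an unadjusted p under 0.05, 3 of the 10 (Tal1, Zfpm1 and Tfrc) were lower in edgeR against 4.17% of all genes tested. In the same 3 genes both 4 °C tumours lay below all 3 tumours kept at 30 °C, a separation seen in 11.0% of all genes. No member showed the opposite separation, which 12.2% of all genes did. Several of the 10 genes rise and fall together over the same 5 libraries. These counts therefore describe the 10 and are not separate pieces of evidence. The Wald test of DESeq2 called 118 genes, or 1.01% of those it adjusted, and none of the 10 was among them.

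**Figure D1:**
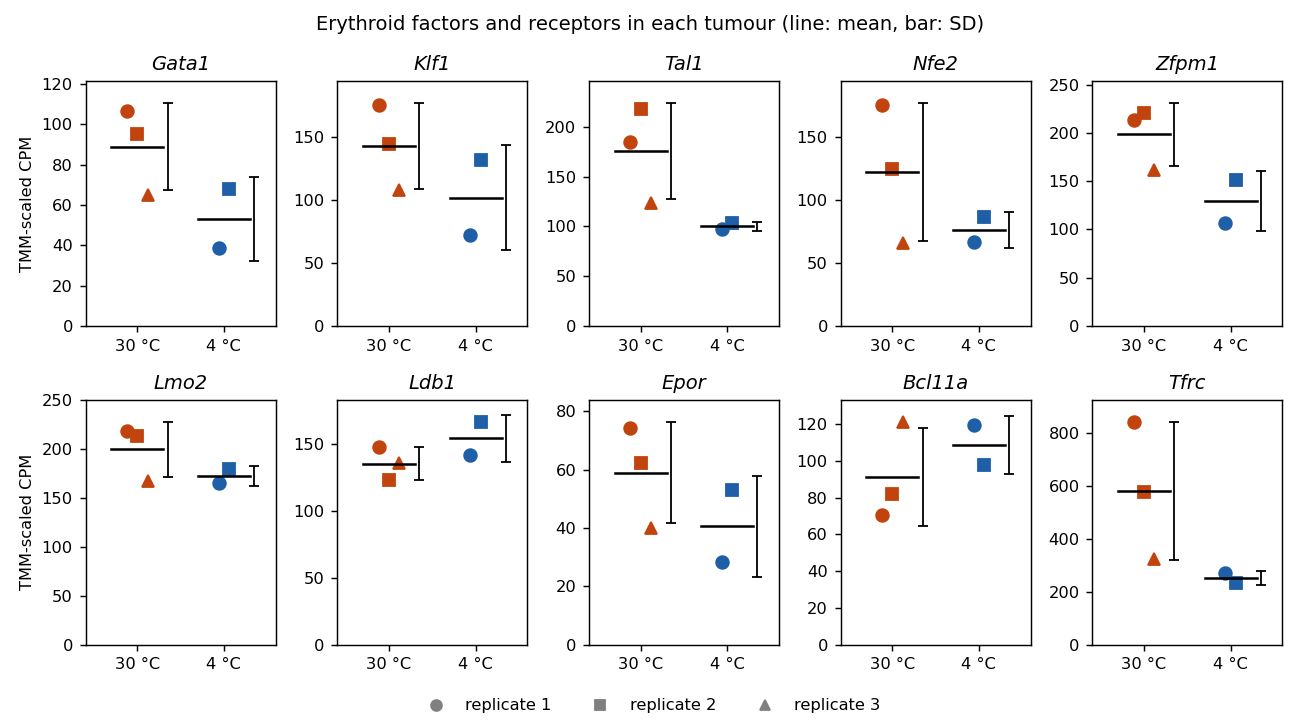
Level of each of the 10 genes in TMM-scaled CPM (vertical axes, starting at 0) in the 3 tumours kept at 30 °C and the 2 kept at 4 °C. Symbols mark replicates, horizontal lines the means and bars the SD. The groups separate in Tal1, Zfpm1 and Tfrc, and the 30 °C replicate 3 tumour lies nearest to the 4 °C tumours in all 3.

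Gata1, the master factor of the lineage, was measured at 107, 95.1 and 65.1 CPM at 30 °C and at 38.4 and 67.8 CPM at 4 °C. The means were 89.0 ± 21.4 CPM (SD, n = 3) and 53.1 ± 20.8 CPM (SD, n = 2). The groups overlapped, since 4 °C replicate 2 was above 30 °C replicate 3. The log2 fold change was -0.74 (SE 0.32, edgeR adjusted p = 0.743). Without TMM scaling the groups came narrowly apart, with 4 °C replicate 2 at 69.9 CPM against 70.0 CPM in 30 °C replicate 2. The estimate leaned on single tumours, reaching -1.23 without 4 °C replicate 2 and -0.39 without 4 °C replicate 1.

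Tal1, the helix-loop-helix partner of GATA1, was measured at 185, 218 and 123 CPM at 30 °C and at 97.0 and 103 CPM at 4 °C. Both 4 °C tumours were below every 30 °C tumour and close to each other, while the 30 °C tumours were spread over 1.77-fold. The means were 175 ± 48.2 CPM (SD, n = 3) and 100.2 ± 4.50 CPM (SD, n = 2), a log2 difference of -0.81 (SE 0.27, edgeR adjusted p = 0.692). Leaving out 1 tumour at a time kept it between -1.01 and -0.63, and the latter value was without the acinar-rich 30 °C replicate 2.

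Zfpm1, the cofactor that GATA1 binds, was measured at 213, 221 and 161 CPM at 30 °C and at 107 and 151 CPM at 4 °C. The groups did not overlap, but 4 °C replicate 2 lay only just below 30 °C replicate 3. The log2 fold change was -0.62 (SE 0.23, edgeR adjusted p = 0.710). It was -0.55 without 30 °C replicate 2, -0.90 without 4 °C replicate 2 and -0.39 without 4 °C replicate 1.

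The adaptors of the complex moved little. Lmo2 was measured at 218, 213 and 167 CPM at 30 °C and at 165 and 179 CPM at 4 °C, with a log2 fold change of -0.22 (SE 0.19, edgeR adjusted p = 0.862). Ldb1 was measured at 148, 123 and 136 CPM at 30 °C and at 142 and 167 CPM at 4 °C, with a log2 fold change of 0.19 (SE 0.17, edgeR adjusted p = 0.868). Groups overlapped in both genes. Leaving out 1 tumour at a time gave -0.33 to -0.15 for Lmo2 and 0.05 to 0.30 for Ldb1. Ldb1 was steady across tumours, with an SD of log2 CPM of 0.16 over the 5 libraries, and only 14.4% of all genes tested had a smaller one.

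Klf1, the factor of globin and membrane genes, was measured at 176, 145 and 108 CPM at 30 °C and at 72.5 and 132 CPM at 4 °C. The 4 °C tumours lay on either side of the lowest 30 °C tumour, and the log2 fold change was -0.48 (SE 0.32, edgeR adjusted p = 0.834). It was -0.996 without 4 °C replicate 2 and -0.12 without 4 °C replicate 1. Nfe2, the subunit of the globin locus factor, was measured at 175, 125 and 65.9 CPM at 30 °C and at 66.3 and 86.6 CPM at 4 °C. Its lowest tumour was thus 30 °C replicate 3, and the 30 °C group alone spanned 2.66-fold. The log2 fold change was -0.67 (SE 0.40, edgeR adjusted p = 0.811), and it was -0.32 without 30 °C replicate 1.

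Bcl11a, the globin silencer, was measured at 70.4, 82.2 and 121 CPM at 30 °C and at 120 and 97.7 CPM at 4 °C. Here 30 °C replicates 1 and 2 were the lowest tumours, the reverse of their place in Gata1, Klf1 and Epor. The log2 fold change was 0.25 (SE 0.27, edgeR adjusted p = 0.884), and it ran from 0.10 without 30 °C replicate 1 to 0.51 without 30 °C replicate 3. The summed level of 10 B-cell markers, among which Bcl11a is not counted, had the same 3 lowest tumours: it was 1324, 1977 and 3527 CPM at 30 °C and 3968 and 3294 CPM at 4 °C. All 10 B-cell markers were fitted higher at 4 °C and none passed the adjusted test. Their part in the level of Bcl11a was not tested.

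Epor, the erythropoietin receptor, was measured at 74.4, 62.3 and 40.0 CPM at 30 °C and at 28.3 and 52.8 CPM at 4 °C. The groups overlapped and the log2 fold change was -0.54 (SE 0.36, edgeR adjusted p = 0.834). Its hormone was not seen in the tumours, as the Epo entry stood at 0 counts throughout. By counting error alone a level of up to 0.185 CPM, before TMM scaling, could go unseen in the library with the fewest counts. The estimate for Epor ranged from -1.07 without 4 °C replicate 2 to -0.16 without 4 °C replicate 1.

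Tfrc, the transferrin receptor, differed most. It was measured at 843, 579 and 323 CPM at 30 °C and at 272 and 234 CPM at 4 °C. Both 4 °C tumours were below all 30 °C tumours, though 30 °C replicate 3 was closer to them than to the rest of its own group. The means were 582 ± 260 CPM (SD, n = 3) and 253 ± 26.4 CPM (SD, n = 2). The log2 fold change was -1.20 (SE 0.40) with an edgeR adjusted p of 0.702 and an unadjusted p of 0.0226, and DESeq2 gave an adjusted p of 0.116. It was -0.84 without 30 °C replicate 1, the tumour with the highest level, and -1.22 without 30 °C replicate 2.

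**Figure D2:**
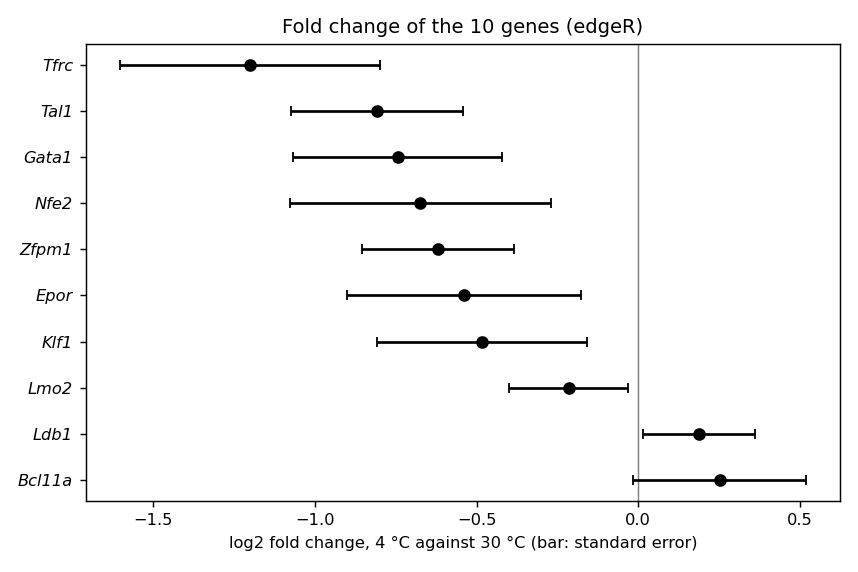
Log2 fold change of 4 °C against 30 °C for each of the 10 genes in edgeR (points) with its standard error (bars). Values run from -1.20 for Tfrc to 0.25 for Bcl11a, with 8 genes left of 0.

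How many of the 10 genes fell under an unadjusted p of 0.05 in edgeR depended on single tumours. The count was 2 without 30 °C replicate 1, where 5.76% of all genes did so in either direction. It was 1 (Tfrc) without 30 °C replicate 2, against 3.24% of all genes, and 5 without 30 °C replicate 3, against 9.36%. Without 4 °C replicate 1 it was 0, although 7.68% of all genes did so, and without 4 °C replicate 2 it was 4, against 3.18%. The share of all genes and the count of the 10 thus did not move together. With plain library totals in place of TMM the count was 1, again Tfrc, against 4.15% of all genes. That scaling shifted the median of all genes by 0.10 on the log2 scale, and 37.3% of all genes were then lower at 4 °C in place of 49.3%. In each of these settings 8 of the 10 genes were fitted lower. Without the acinar-rich 30 °C replicate 2, the log2 fold changes not given above were -0.71 for Gata1, -0.49 for Klf1, -0.67 for Nfe2, -0.18 for Lmo2, 0.11 for Ldb1, -0.51 for Epor and 0.17 for Bcl11a.

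Per length of the gene's exons, Bcl11a stood far below the other genes. This length joins the exons of all annotated transcripts, and was 13175 bases for Bcl11a against 1530 to 6185 for the others. In CPM alone the 30 °C mean of Bcl11a, 91.3, was above those of Gata1 (89.0) and Epor (58.9). At 30 °C the means were 94.0 CPM per kb for Tfrc, 93.4 for Klf1 and 92.1 for Lmo2, and these 3 differed by less than their spread. Zfpm1 followed at 56.6 CPM per kb, then Nfe2 at 40.8, Tal1 at 40.1, Gata1 at 36.5, Epor at 29.6 and Ldb1 at 29.4, and neighbours from Nfe2 to Ldb1 in this order were closer than their SDs. Bcl11a was lowest at 6.93 ± 2.02 CPM per kb (SD, n = 3). At 4 °C Lmo2 led with 79.3 CPM per kb, ahead of Klf1 with 66.8 and Tfrc with 40.9, and Bcl11a remained lowest with 8.26. Ldb1, at 33.5 CPM per kb, ranked 5 of 10 at 4 °C and 9 of 10 at 30 °C.

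The shape of the profiles over the 5 tumours was compared by the root mean square (RMS) difference of log2 CPM after centring each gene on its own mean. Klf1 and Epor were the closest pair at 0.08, followed by Gata1 and Epor at 0.12, Gata1 and Klf1 at 0.13 and Gata1 and Zfpm1 at 0.16. These profiles were high in 30 °C replicates 1 and 2, between these extremes in 30 °C replicate 3 and 4 °C replicate 2, and lowest in 4 °C replicate 1. Bcl11a and Tfrc were the farthest pair at 0.97. The 5 points come from the same libraries and share their scaling, so the measure is a description. It was computed also for all other genes with a mean of at least 5 CPM. The nearest to Gata1 was Uros, an enzyme of haem synthesis, at 0.05 log2 units, and the nearest to Epor was Birc5, a gene of dividing cells, at 0.06. Nearest to Klf1 was Psmc3ip at 0.02, to Tal1 Sgo1, which protects chromosome cohesion, at 0.08, and to Zfpm1 Stx2 at 0.03. Nearest to Nfe2 was Camk2b (0.03), to Lmo2 the proteasome subunit Psmc6 (0.01), to Ldb1 the phosphatase subunit Ppp1ca (0.01) and to Bcl11a Map4k2 (0.03). The nearest to Tfrc was Dusp8 at 0.13. The measure grows with how much a gene varies, and the SD of log2 CPM was 0.78 for Tfrc against 0.16 for Ldb1. Distances of genes with unlike spread are therefore not comparable.

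**Figure D3:**
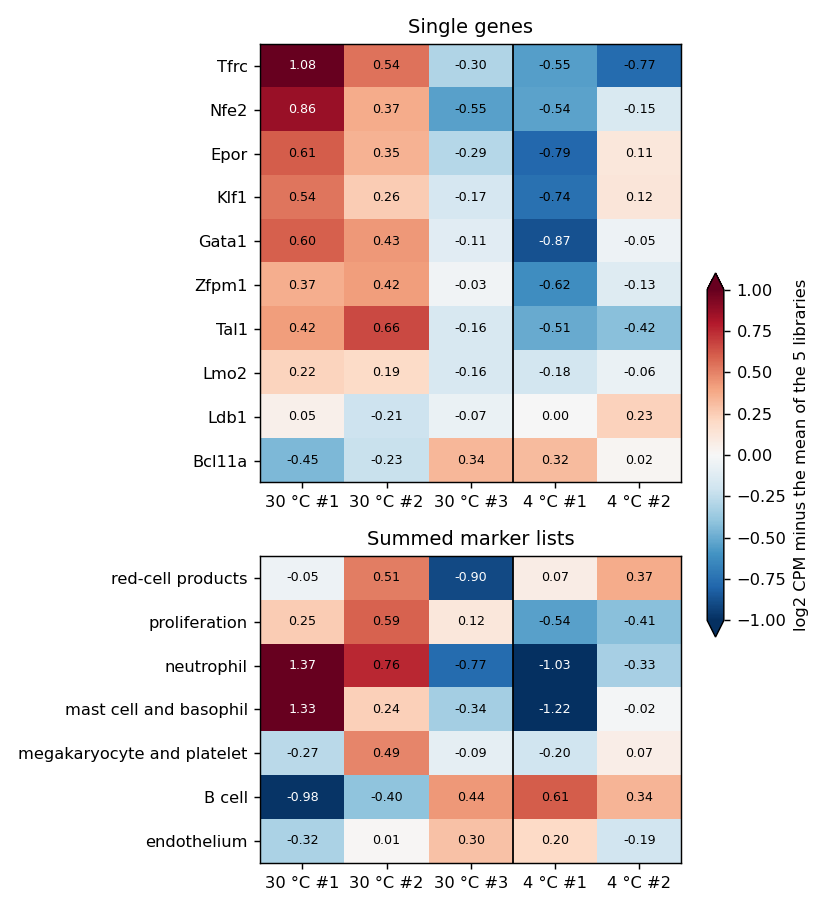
Heat map of log2 CPM minus the mean over the 5 libraries (colour and printed values) for the 10 genes and for summed marker lists, with libraries in columns and a line between the 30 °C and 4 °C groups. Gata1, Klf1, Epor and Zfpm1 share a pattern with 4 °C replicate 1 lowest, and Bcl11a runs opposite in 30 °C replicates 1 and 2. Colours saturate beyond 1 in size.

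Other markers moved over the tumours as well. The summed level of 10 proliferation genes was 1772 to 2457 CPM at 30 °C and 1122 to 1226 CPM at 4 °C. All 10 were fitted lower at 4 °C, 7 of them at an unadjusted p under 0.05 and none past the adjusted threshold of edgeR. Over all genes tested, 49.3% were fitted lower and 4.17% were lower at that unadjusted p. Neutrophil markers summed to 14059, 9154 and 3175 CPM at 30 °C and to 2658 and 4316 CPM at 4 °C. The 8 mast-cell and basophil markers summed to 159, 74.9 and 50.2 CPM at 30 °C and to 27.3 and 62.6 CPM at 4 °C. The neutrophil and mast-cell sums ordered the 5 tumours as Gata1, Klf1 and Epor did. Megakaryocyte and platelet markers summed to 346 to 585 CPM at 30 °C and 363 to 437 CPM at 4 °C, and endothelial markers to 309 to 472 and 337 to 441 CPM, so that both overlapped. Markers of blood stem and progenitor cells summed to 149 to 165 CPM and 138 to 174 CPM. Which part of these cells' RNA entered the levels of the 10 genes was not tested.

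The partners of the factors were examined as a list of 30 other transcriptional regulators, of which 17 were fitted lower and 13 higher at 4 °C with a median log2 fold change of -0.07. No gene of the list passed the adjusted threshold in edgeR. At an unadjusted p under 0.05, 5 were lower and 0 higher, where 4.17% of all genes tested were lower. The 4 with the smallest p were Sox6, which represses embryonic globin together with BCL11A (log2 -1.15, SE 0.27, edgeR adjusted p = 0.689), the progenitor factor Myb (-0.73), Foxo3 (-0.60), which acts in late red-cell maturation, and the KLF1-related repressor Klf3 (-0.46). Sox6 was measured at 60.1, 84.8 and 48.5 CPM at 30 °C and at 30.6 and 27.6 CPM at 4 °C, with no overlap, and DESeq2 called it with an adjusted p of 0.0314. The fitted fold change of Bcl11a, 0.25, had the other sign, but it was smaller than its SE of 0.27 and its groups overlapped.

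Of 20 genes of erythropoietin and stem-cell-factor signalling, 19 were tested, with 13 fitted lower and 6 higher and a median log2 fold change of -0.18. No gene of the list passed the adjusted threshold in edgeR, and 1 was lower at an unadjusted p under 0.05, against 4.17% of all genes tested. That gene was Kit, the stem-cell-factor receptor (-0.65, SE 0.23, edgeR adjusted p = 0.706). Pim1, a kinase gene induced by STAT5, followed with -0.66, then the phosphatase gene Ptpn6 with 0.29 and the KIT ligand gene Kitl with 0.29. Kit was measured at 44.6, 58.1 and 50.1 CPM at 30 °C and at 38.3 and 26.5 CPM at 4 °C.

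Among 16 genes of iron uptake and iron control, 11 were fitted lower and 5 higher, with a median log2 fold change of -0.26. The 3 at an unadjusted p under 0.05 were all lower, where 4.17% of all genes tested were lower at such a p. None passed the adjusted threshold in edgeR. Abcb10, a mitochondrial transporter needed for haem synthesis, was measured at 201, 246 and 160 CPM at 30 °C and at 100.1 and 112 CPM at 4 °C. Its log2 fold change was -0.93 (SE 0.23, edgeR adjusted p = 0.689), and DESeq2 called it with an adjusted p of 0.0396. Tfr2, the transferrin receptor relative that senses iron, had -0.72 (SE 0.19), Steap3, the endosomal iron reductase, -0.68 (SE 0.22), and Slc11a2, the endosomal iron transporter DMT1, -0.40 (SE 0.21). The gene of transferrin itself, Trf, lay on the other side with 0.59 (SE 0.39, edgeR adjusted p = 0.834). It was measured at 28.0, 55.8 and 69.9 CPM at 30 °C and at 61.7 and 92.3 CPM at 4 °C, with overlap, and was named after its value was seen.

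The products of late red-cell formation did not move as a block. Of 29 tested genes, 23 were fitted lower and 6 higher, with a median log2 fold change of -0.57. At an unadjusted p under 0.05, 9 of them were lower, and none passed the adjusted threshold in edgeR. Over all genes tested, 49.3% were fitted lower and 4.17% were lower at that unadjusted p. The blood-group protein gene Ermap had a log2 fold change of -1.16, the membrane skeleton genes Ank1 and Sptb -1.05 and -1.06 and the haem synthesis gene Cpox -1.04, each with an edgeR adjusted p of 0.689. DESeq2 called these 4 genes, with adjusted p of 0.00124, 0.00473, 0.0175 and 0.00804 for Ermap, Ank1, Sptb and Cpox. The adult globin genes, named after their values were seen, were fitted higher at 4 °C: Hba-a1 by 0.63, Hbb-bt by 0.61, Hbb-bs by 0.44 and Hba-a2 by 0.17, none past the adjusted threshold. Hbb-bs was measured at 11949, 19388 and 5827 CPM at 30 °C and at 14904 and 18816 CPM at 4 °C, with overlap. Globin copies are near-identical, and how reads shared between them were counted is not given in the sources used here.

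**Figure D4:**
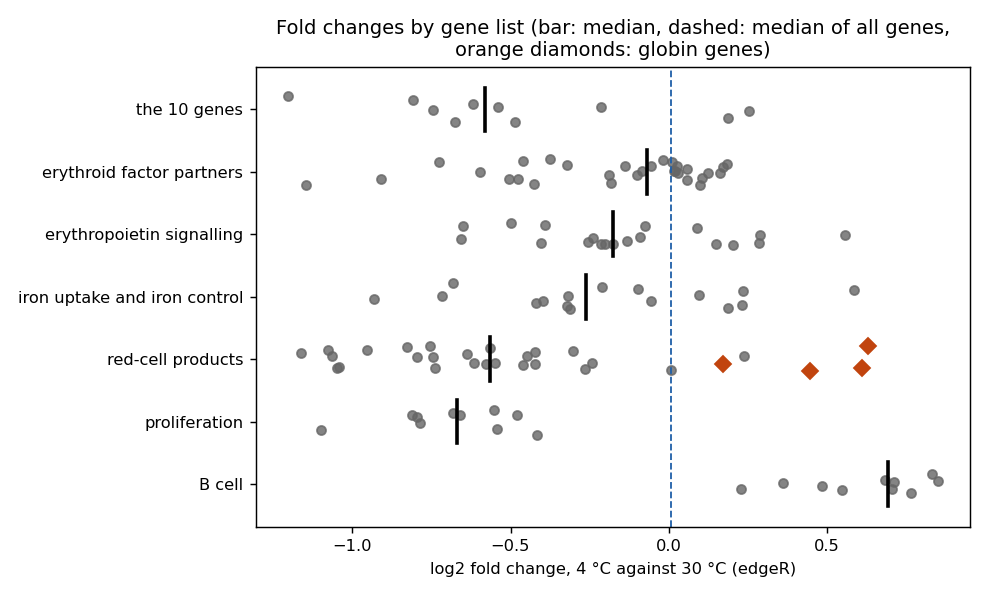
Log2 fold change of 4 °C against 30 °C (horizontal axis, edgeR) for every tested gene of 7 lists, 1 point per gene with vertical jitter. Black bars mark list medians, the dashed line the median of all genes at 0.01 and orange diamonds the globin genes, which lie right of 0 while most red-cell products lie left of it.

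The 10 genes were next set against the red-cell products within each tumour, as log2 CPM minus the mean log2 CPM of the 29 products, to ask whether they differed from the amount of red-cell RNA. Tal1 gave -1.30, -1.34 and -1.23 at 30 °C and -1.60 and -1.64 at 4 °C, a difference of -0.34 with no overlap. Tfrc gave 0.89, 0.07 and 0.16 at 30 °C and -0.12 and -0.46 at 4 °C, a difference of -0.67 with no overlap. Ldb1 was relatively higher at 4 °C by 0.62, also with no overlap, and by 0.35 without 30 °C replicate 2. The mean of the 29 products itself differed by -0.43, with an exact two-sided permutation p of 0.6. A gene that stayed level would therefore be relatively higher at 4 °C. For Tal1, Tfrc and Ldb1 the exact two-sided permutation p was 0.2. That is the smallest that 3 tumours against 2 can give, and this design cannot pass 0.05. The share of all genes without overlap on this measure was not computed. The other genes overlapped, with differences of -0.34 for Gata1, -0.19 for Zfpm1, -0.14 for Nfe2, -0.13 for Epor, -0.09 for Klf1, 0.23 for Lmo2 and 0.72 for Bcl11a. With the summed red-cell products without globins as the reference the differences were close to these, at -0.30 for both Gata1 and Tal1, -0.63 for Tfrc and 0.66 for Ldb1. Other references moved them. Against Hbb-bs alone all 10 differences were negative, with -1.37 for Gata1, -0.41 for Ldb1 and -1.70 for Tfrc. Against the mean of the 10 proliferation genes they were -0.09 for both Gata1 and Tal1, 0.06 for Zfpm1, 0.16 for Klf1 and -0.42 for Tfrc.

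Ratios of raw counts inside a library do not depend on scaling, and the pairs given here were chosen after the values were seen. Klf1 counts were 2.37, 2.32 and 2.69 times those of Epor at 30 °C and 2.56 and 2.49 times at 4 °C, a range of 1.16-fold over the 5 tumours. The 2 genes thus kept close to one another while Klf1 itself varied 2.43-fold and Epor 2.63-fold. Gata1 counts were 1.43, 1.53 and 1.63 times those of Epor at 30 °C and 1.36 and 1.28 times at 4 °C, lower in both 4 °C tumours. Ldb1 counts were 1.39, 1.30 and 2.08 times those of Gata1 at 30 °C and 3.69 and 2.46 times at 4 °C, higher in both cold-exposed tumours. The ratio of Lmo2 to Gata1 was also higher in both, with 2.04, 2.24 and 2.57 against 4.28 and 2.64. Hbb-bs counts were 112, 204 and 89.5 times those of Gata1 at 30 °C and 388 and 277 times at 4 °C. Gata2, which GATA1 replaces as erythroid cells mature, gave a ratio of Gata1 to Gata2 of 8.21, 8.45 and 5.92 at 30 °C and 2.86 and 5.58 at 4 °C. The ratios of Zfpm1, Tal1, Tfrc and Bcl11a to Gata1 overlapped between the groups. Ldb1 is active in many cell types, so its ratio to Gata1 in bulk RNA does not give the make-up of the complex. The share of all gene pairs whose ratios separate was not computed. No test was run on these ratios.

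**Figure D5:**
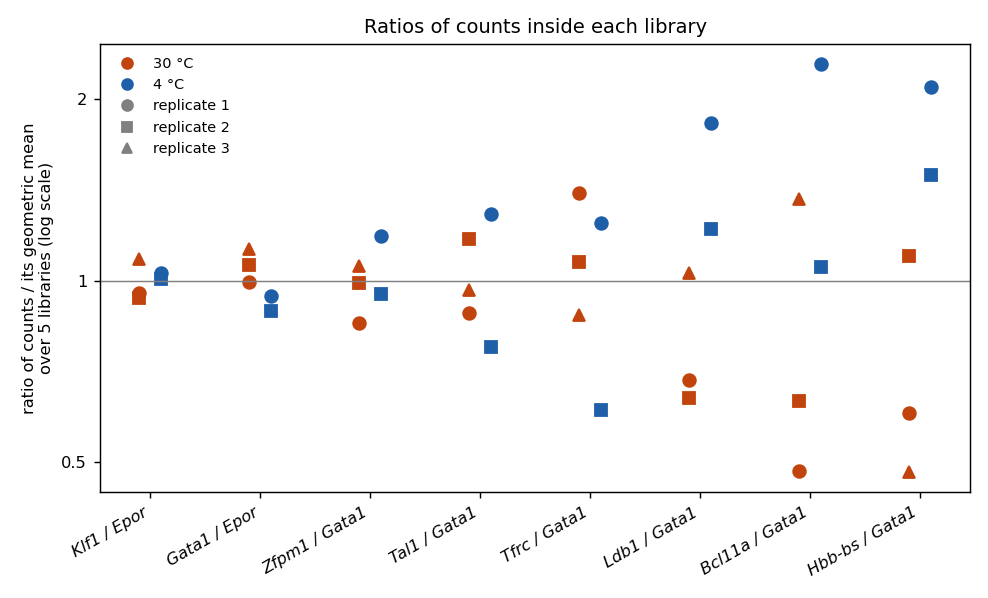
Ratio of the raw counts of 2 genes inside each library, divided by its geometric mean over the 5 libraries (vertical axis, log scale), for 8 pairs. Colours mark temperature and symbols replicates. The ratio of Klf1 to Epor stays within 1.16-fold, and those of Ldb1 and Hbb-bs to Gata1 are higher in both 4 °C tumours. Those of Zfpm1, Tal1, Tfrc and Bcl11a to Gata1 overlap between the groups.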

How the data were processed

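RNA from 5 tumours, 3 kept at 30 °C and 2 at 4 °C, was sequenced. The deposited values are counts per gene, which per the study's methods the authors obtained with featureCounts on a Gencode annotation. The submitters' processing notes also name fastp, HISAT, RSEM and GRCm38 without giving their roles. The strand setting is not given in the sources used here. The 333 entries without a name (0.0101 to 0.0170% of counts) were left out, and where entries shared 1 of 97 symbols, the most abundant entry was used for it.

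Counts were filtered with filterByExpr, scaled by TMM and compared with the robust quasi-likelihood test of edgeR 4.0.16 (R 4.3.3), adjusted by Benjamini-Hochberg over 16133 genes. DESeq2, the tool the authors tested with, was an alternative in version 1.42.0. Fold changes were those of the edgeR fit at its default prior count. Log2 CPM, used for profiles, nearest genes and relative levels, had a prior count of 2. The floor was 3 counts, or 0.148 to 0.185 CPM of plain library totals, before TMM scaling. Samples are labelled by group and number, and p-values measure the spread between these samples. Exact permutation tests enumerated the 10 splits of 3 against 2 and were two-sided. Exon lengths came from GENCODE M21. Scripts were tested on simulated data.

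The 10 genes and all lists were chosen with earlier results of these data known. Named were all 10 genes, of each of 4 lists the 4 tested genes with the smallest p, and for each gene the nearest gene by profile. Ahsp was not analysed here. Alternatives were other scalings and filters, DESeq2, a replicate block, removal of acinar genes and leaving out each tumour.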

Additional observations from a re-analysis of the deposited data

How the results depend on the processing

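The 140 alternative fold changes of the 10 genes all kept their direction and stayed past no adjusted threshold. The number of genes called over the whole table, 0 in the reported edgeR test, was 8 with plain library totals, 118 with DESeq2, 44 with a replicate block and 1090 at an unadjusted p under 0.05. At that unadjusted p the count was 3 of the 10 genes, 5 of the 30 factor partners and 1 of the 19 tested signalling genes. It was 3 of the 16 iron genes and 9 of the 29 red-cell products, in place of 0 each. All of these were lower at 4 °C, as were 4.17% of all genes tested. DESeq2 called 1 factor partner, 1 iron gene and 5 red-cell products, against 1.01% of all genes it adjusted. Of 224 alternative fold changes of the 16 named list genes, 218 kept their call and 6 passed the threshold in DESeq2, with no change of direction. Of 90 alternative relative levels, 19 moved by more than the spread between tumours.

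Replicate numbers were shared between groups but the labels do not say that they pair tumours. Deviations from the group means correlated at -0.255 and 0.259 for same-numbered tumours and at 0.616 for 30 °C replicate 3 with 4 °C replicate 1. The deviations of the 2 tumours at 4 °C are mirror images by construction, so each correlation comes with its negative. These values therefore cannot decide whether the numbers pair tumours. With the replicate block, Tfrc had a log2 fold change of -1.47 (edgeR adjusted p = 0.0663). In that fit 6 of the 10 genes had an unadjusted p under 0.05, against 6.06% of all genes. The tumour of 30 °C replicate 3 has no 4 °C tumour of its number, so in the block it adds nothing to the group difference. Leaving that tumour out without a block gave Tfrc a log2 fold change of -1.49. The block also fits more terms to the same 5 libraries, which leaves less to estimate the spread from. With 2 tumours at 4 °C, the SD of that group rests on a single difference.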
